A study of Mus musculus with 30 samples.

Results

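The first megabase of chromosome 11 that carried any vector insertion (GRCm39, from 3000001 to 4000000, 1-based) was examined in livers of mice treated with transposon gene therapy vectors. It was selected on its density of Sleeping Beauty (SB) sites, the highest of all 1 Mb windows of the genome, so that density is described below and not tested. All sites that start in it were taken from every liver. It held 2526 of the 2181734 site records of the series, a record being 1 position on 1 strand in 1 liver. The piggyBac (PB) livers gave 1177 records at 642 positions and the SB livers 1349 records at 1078 positions. The same chromosome from 4 to 10 Mb, with 3278 PB and 2770 SB records, served as the comparison stretch.

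The series consists of 17 livers treated with the PB vector system and 13 livers treated with the SB vector system, all from mice in which Fah was knocked out. Fah encodes fumarylacetoacetate hydrolase, the enzyme that completes tyrosine breakdown, and its loss models tyrosinemia type I. Whole livers were lysed, so all liver cell types are mixed in each library, and no untreated liver was analysed here. Sites were read by streptavidin-based enrichment sequencing (SBE-seq), in which fragments that span a vector end are amplified with a biotinylated primer and captured. Livers held 16364 to 124238 records with PB and 4893 to 120220 with SB, the lowest being SB liver 13. The labels give no age, strain background, vector dose or time of collection.

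PB and SB are cut-and-paste DNA transposons. PB transposase inserts at TTAA tetranucleotides and is known to favour open chromatin and the starts of active genes, whereas SB transposase inserts at TA dinucleotides with a distribution closer to random. In a liver lacking Fah, hepatocytes that carry a working copy have a growth advantage. The number of sites read in a stretch also depends on how many copies of it each cell carries and on whether short reads can be placed there uniquely.

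Density was expressed as records per 10000 nuclear records of the same liver. The whole window averaged 10.0 ± 1.56 in the 17 PB livers and 14.6 ± 2.34 in the 13 SB livers (SD). PB livers had between 7.36 and 12.6 records per 10000 with a median of 9.66, and SB livers between 11.7 and 20.4 with a median of 14.03. These ranges overlap. Among all 1 Mb windows with a record, the window ranked 63 of 2642 in PB and 1 of 2652 in SB. The next densest SB window had 9.59 records per 10000. Ranked within single livers, its place ran from 17 to 268 (median 99) in PB and from 1 to 4 in SB, where it was first in 10 of 13 livers.

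Split into 10 kb steps, the records were concentrated in a single stretch near the start of the window. The stretch was delimited after its values were seen, as the run of steps around the densest SB step in which each step exceeded the densest SB step of the comparison stretch. It covered 7 consecutive steps, 70 kb from 3080001 to 3150000, and is called the pile-up here. It held 609 PB and 753 SB records. Its mean 10 kb step carried 0.741 records per 10000 in PB and 1.16 in SB, whereas a mean step of the comparison stretch carried 0.0453 in PB and 0.0482 in SB. The pile-up was therefore 16.4-fold denser than the comparison stretch in PB and 24.1-fold denser in SB. The remaining 93 steps of the window were 1.15-fold as dense as the comparison stretch in PB and 1.44-fold in SB.

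**Figure D1:**
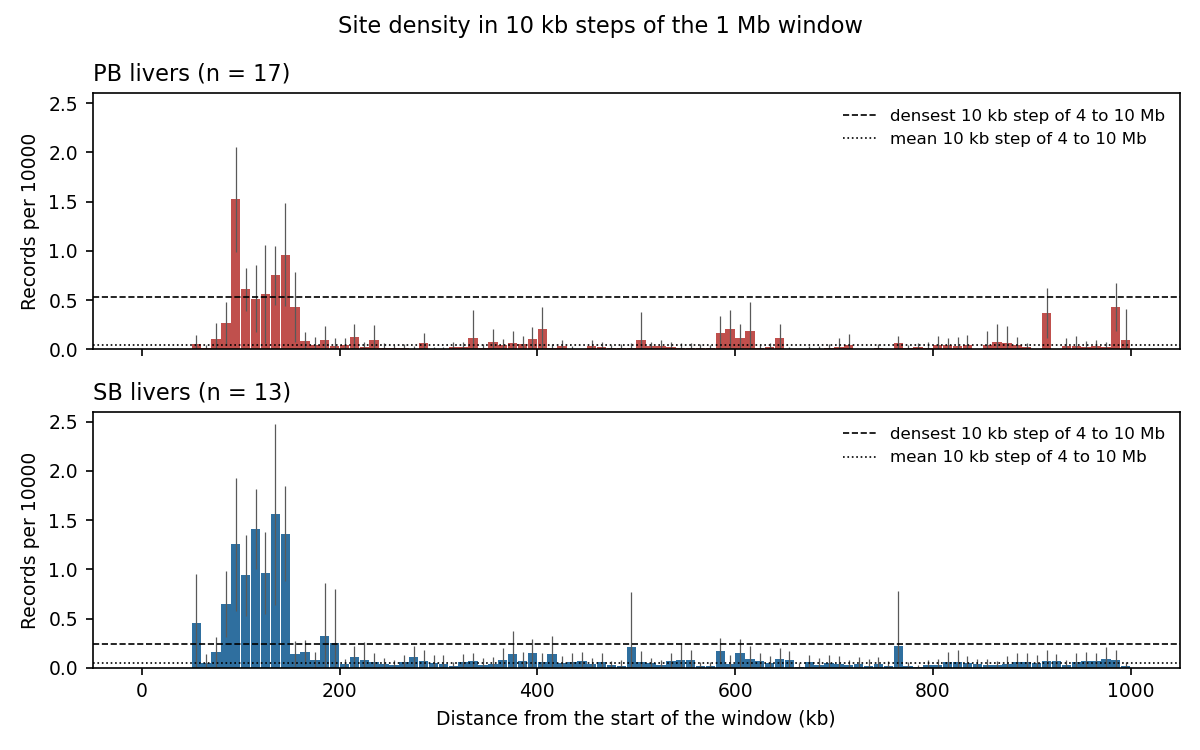
Mean site density (records per 10000 nuclear records of a liver) in each 10 kb step of the window, against the distance from its start in kb, for PB livers (n = 17, upper panel) and SB livers (n = 13, lower panel). Bars are means and thin lines the SD between livers, with the lower arm stopped at 0. In both panels the tall bars lie between 80 and 150 kb, above the densest step of the 4 to 10 Mb stretch in 5 steps in PB and in all 7 steps in SB.

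The pile-up was present in every liver. PB livers had 3.46 to 7.33 pile-up records per 10000 (median 4.95) and SB livers 6.65 to 10.2 (median 7.91). A single PB liver exceeded the lowest SB liver, and 5 SB livers lay below the highest PB liver. Relative to its own comparison stretch, the pile-up was 16.3 ± 2.2-fold denser in PB livers (SD, n = 17, lowest 11.9 and highest 20.6) and 24.3 ± 4.6-fold denser in SB livers (SD, n = 13, lowest 18.5 and highest 35.7). The highest SB value came from SB liver 13 and rests on 5 pile-up records. Without that liver the SB mean was 23.3 ± 3.1 (SD, n = 12). The rest of the window was 1.16 ± 0.31-fold as dense as the comparison stretch in PB livers and 1.47 ± 0.42-fold in SB livers.

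The share of the window's records that lay in the pile-up was 52.1% ± 8.4 in PB livers (SD, n = 17, from 40.7% to 65.6%) and 55.8% ± 3.6 in SB livers (SD, n = 13, from 50.0% to 60.2%). These ranges overlap, and the difference was not tested. With positions found in 1 liver only, the share was 26.0% in PB and 39.6% in SB. PB livers 13 to 17, which the labels do not set apart in any other way, had 11.6 ± 0.96 records per 10000 in the window (SD, n = 5), and PB livers 1 to 12 had 9.41 ± 1.32 (SD, n = 12). Livers 13 to 17 also held fewer nuclear records, 16364 to 40598 against 66528 to 124238 in livers 1 to 12. Whether this bears on the density was not tested. Their shares in the pile-up were 51.8% ± 9.1 in livers 13 to 17 and 52.3% ± 8.6 in livers 1 to 12.

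**Figure D2:**
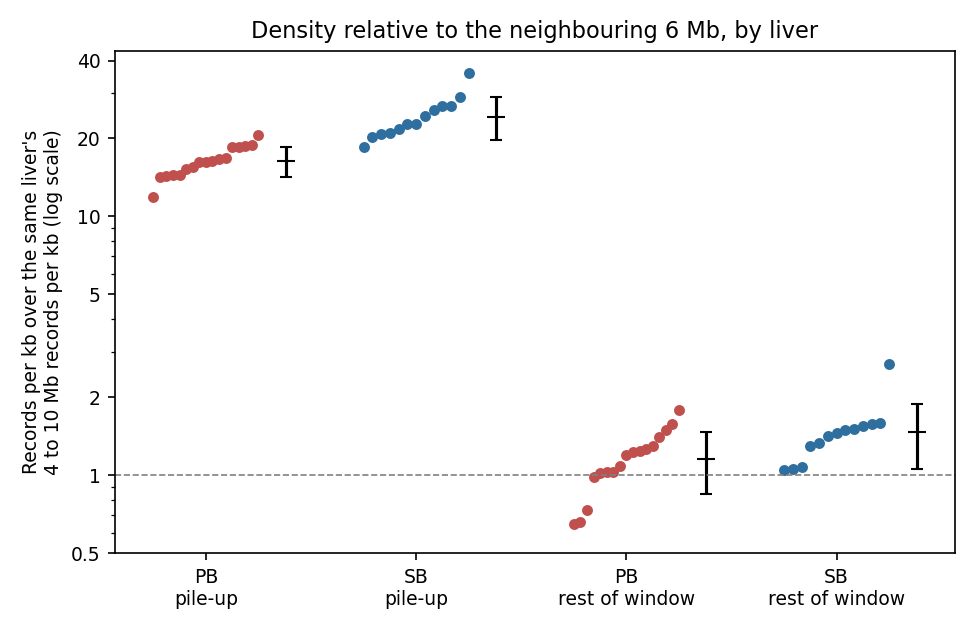
Records per kb in the pile-up and in the rest of the window, divided by those of the 4 to 10 Mb stretch in the same liver (log axis). Each point is a liver, sorted by value within its group, and the bars give the mean and SD of 17 PB or 13 SB livers. All pile-up points lie at 11.9 or above, while the rest of the window lies above 1 in 13 of 17 PB livers and in all 13 SB livers, from 1.05 to 1.60 in SB livers 1 to 12 and at 2.69 in SB liver 13.

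The steps inside the pile-up are given in turn, as no test of their profile was run. The PB maximum was the step from 3090001 to 3100000, with 173 records in 17 of 17 PB livers and 124 records in 12 of 13 SB livers. In PB livers it carried from 1.03 to 2.96 records per 10000 (median 1.44), and in SB livers from 0 to 2.52 (median 1.16). The groups overlap in this step. It was the densest of all 10 kb steps of the genome in PB, ahead of 1.32 records per 10000 in the densest PB step elsewhere. The next PB steps were those starting at 3140001 with 0.959, 3130001 with 0.753, 3100001 with 0.608 and 3120001 with 0.563 mean records per 10000.

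With all 13 SB livers the SB maximum was the step from 3130001 to 3140000, with a mean of 0.753 records per 10000 in PB and 1.56 in SB. PB livers had from 0.228 to 1.44 (median 0.677) in that step, and SB livers from 0.623 to 4.09 (median 1.33). The highest SB value again belonged to SB liver 13, where 2 records make up such a density, and this liver sets the maximum. Without it the SB means were 1.36 in the step from 3090001, which is the PB maximum, 1.36 in that from 3110001 and 1.35 in that from 3130001. The other leading SB steps started at 3110001 with 1.41, 3140001 with 1.36, 3090001 with 1.26 and 3120001 with 0.965 mean records per 10000. The pile-up held the 4 densest SB steps of the genome and 6 of the 10 densest, while the densest SB step elsewhere had 0.975. Without SB liver 13 it held 7 of the 10 densest, and the densest step elsewhere had 0.605. In PB it held 1 of the 10 densest.

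The run was then set against runs elsewhere in the genome. In SB, 16 other runs of steps anywhere in the genome reached the lowest pile-up step (0.649 records per 10000), and each was 1 step long. Without SB liver 13 the lowest pile-up step was 0.704, and 0 other runs reached it. The summed pile-up density of 8.14 was 5.36-fold that of the densest other 70 kb stretch, 1.52 on chromosome 1 from 136920001 to 136990000. In PB the lowest pile-up step (0.262) was a common level: 4255 runs elsewhere reached it, the longest of 10 steps on chromosome 1. The summed PB density of 5.19 still exceeded the densest other 70 kb stretch, 3.91 on chromosome 19, by 1.33-fold. No denser stretch of that length on this grid was found in either group.

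Records began abruptly on this chromosome. The first PB record spanned 3050139 to 3050142 and the first SB record 3050296 to 3050297, so the first 5 steps of the window were empty with both vectors. The step from 3050001 to 3060000 was an SB feature, with 7 PB records and 31 SB records. The 20 kb before the pile-up held 12 PB and 19 SB records. The first 10 kb of the pile-up then held 29 PB and 62 SB records, and its last 10 kb 113 PB and 127 SB records. Beyond its end the next 10 kb held 47 PB and 13 SB records, and the 10 kb after that 13 PB and 15 SB records. The SB profile therefore fell within 1 step at the distal edge and the PB profile within 2. At the far limit of the window, density had no such edge: the last PB record inside it ended at 3999650 and the first outside began at 4000120, and the last SB record inside ended at 3998511 and the first outside began at 4002622.

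At 1 kb resolution the pile-up was broad and not a single spike. Of its 70 steps of 1 kb, 62 held a PB record and 69 an SB record. In the rest of the window 28.5% of 1 kb steps held a PB record and 42.5% an SB record, and in the comparison stretch 26.3% held a PB record and 32.7% an SB record. The 5 fullest 1 kb steps held 30.4% of the PB and 18.7% of the SB records of the pile-up.

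The densest PB 1 kb step, from 3096001 to 3097000, carried 77 records of all 17 PB livers at only 7 positions. It was followed by the steps starting at 3136001 with 31 records, 3097001 with 29, 3914001 with 16 and 3092001 with 23, in the order of their mean density. The fourth of these lies outside the pile-up. The densest SB 1 kb step, from 3091001 to 3092000, carried 39 records of 11 SB livers at 13 positions. The next SB steps started at 3139001 with 24 records, 3117001 with 22, 3145001 with 32 and 3140001 with 12. A record of SB liver 13 weighs heavily in this order: without that liver the densest SB steps were 3091001, 3145001, 3118001, 3139001 and 3138001. With or without it, no 1 kb step was among the 5 densest of both vectors.

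**Figure D3:**
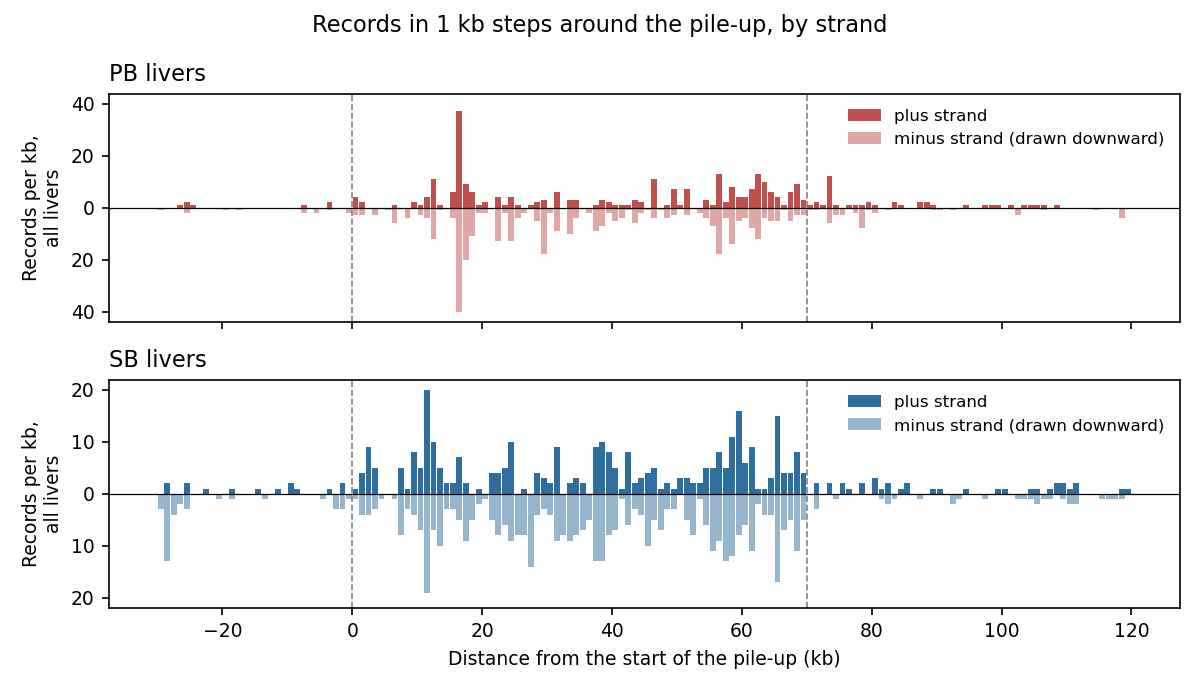
Records of all livers per 1 kb step around the pile-up, plus strand upward and minus strand downward, against the distance from the start of the pile-up in kb, for 17 PB livers (upper panel) and 13 SB livers (lower panel, with its own vertical scale). Dashed lines mark the pile-up. The PB records peak in the step of 77 records 16 kb into the pile-up, and the SB records fill 69 of its 70 steps.

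Leaving out dense steps changed the window's place in both groups. Without the single densest 10 kb step of every window it ranked 105 in PB and 1 in SB, and without the 2 densest 132 in PB and 1 in SB. Without the 5 densest steps of every window it ranked 233 in PB and 3 in SB, and without the 10 densest 448 in PB and 118 in SB. Described by its median 10 kb step, it ranked 573 in PB and 187 in SB. With the pile-up alone removed from this window and all other windows left whole, its density was 4.86 records per 10000 in PB (rank 819) and 6.47 in SB (rank 251). The place of the window as the densest in SB thus rests on 70 kb of its length. The rank by distinct positions, which counts a position once however many livers carry it, was 227 in PB and 1 in SB.

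**Figure D4:**
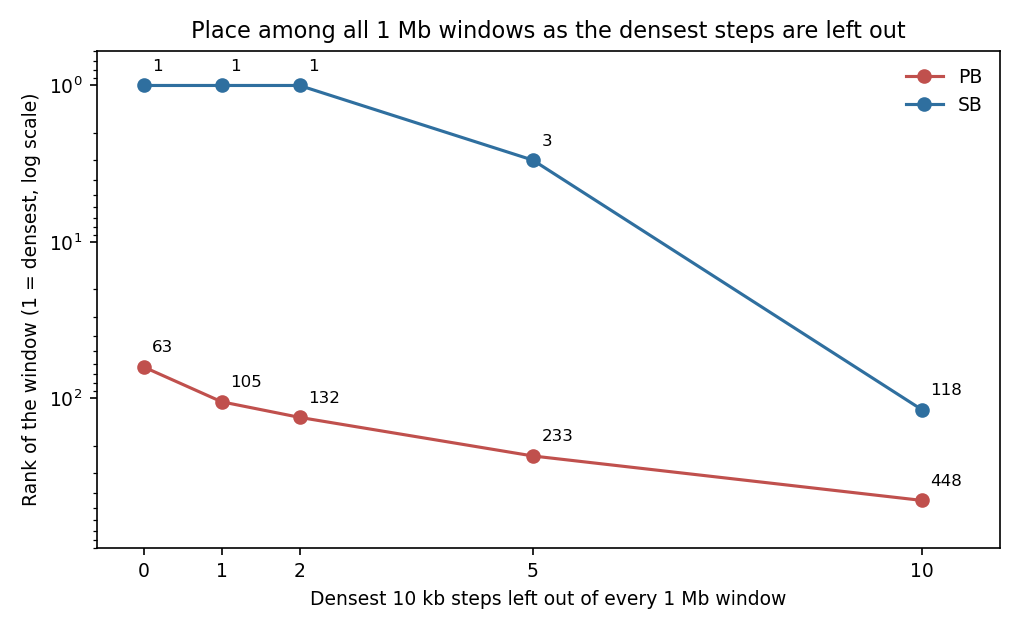
Rank of the window by mean density among all 1 Mb windows with a record (log axis, 1 at the top) against the number of densest 10 kb steps left out of every window, for PB (2642 windows) and SB (2652 windows). The SB rank stays at 1 without the 2 densest steps and is 118 without the 10 densest, and the PB rank goes to 448.

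Reuse of exact positions between livers was more frequent in the pile-up than around it, with both vectors. Of its positions, 52.7% in PB and 28.5% in SB were found in at least 2 livers of the group. In the rest of the window it was 81 of 405 positions in PB and 3.49% in SB, and in the comparison stretch 18.9% in PB and 2.64% in SB. Records at such shared positions made up 81.4% of the PB and 51.7% of the SB records of the pile-up, against 40.1% of PB and 5.16% of SB records of the comparison stretch. Positions in at least 5 livers numbered 27 in the pile-up and 7 in the rest of the window in PB, and 7 in the pile-up and 0 in the rest in SB. A stretch with more records also gives more chance coincidences, and the share of the reuse due to density was not tested.

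The most reused PB position, from 3096764 to 3096767, was found in 17 of 17 livers with 27 records, 12 on the plus and 15 on the minus strand. Its support, the whole number listed with each site and taken as the reads behind it, ran from 3 to 265 with a median of 107, and it exceeded the liver's own median in 17 of the 27 records. In 10 livers both strands were recorded, in 5 livers the minus strand alone and in 2 livers the plus strand alone. The next were the positions starting at 3096414 in 11 livers, 3143705 in 10, 3096732 in 9 and 3136998 in 8. Of these 5 positions, 3 lie within the densest PB 1 kb step.

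In SB the most reused position, from 3091320 to 3091321, was found in 8 of 13 livers with 9 records, 7 on the plus and 2 on the minus strand. Its support ran from 3 to 119 with a median of 51. The positions starting at 3136709, 3091733, 3104104 and 3117356 were each found in 5 livers. In the comparison stretch no SB position occurred in more than 3 livers, and no PB position in more than 10. In the pile-up 6 SB positions lay inside the 4 bp of a PB position, 2.53% of the PB and 1.19% of the SB positions there. In the comparison stretch 9 did so, 0.375% of the PB and 0.334% of the SB positions. A denser stretch also gives more chance overlaps, and the share due to density was not tested. Outside the pile-up, the PB position from 3401496 to 3401499, picked out after its values were seen, was the most reused, in 8 livers.

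A position can be recorded on both strands of 1 liver. In the pile-up this held for 42 of 567 PB and 14 of 739 SB positions counted per liver, 7.41% and 1.89%. In the comparison stretch it held for 72 of 3206 PB and 4 of 2766 SB positions, 2.25% and 0.145%. Both-strand positions were thus a larger share in the pile-up with either vector, and for SB those of the rest of the window numbered 1 of 595. Bases directly next to each other were also compared, since an alignment off by 1 bp would split a site. In the pile-up 14 of 237 PB positions lay 1 bp from the next and in the comparison stretch 84 of 2403, and for SB the counts were 1 of 505 and 3 of 2694. Within 10 bp of the next lay 33 of 237 PB and 110 of 505 SB positions in the pile-up. In the comparison stretch it was 109 of 2403 and 88 of 2694. A denser stretch also gives more close neighbours, and the share due to density was not tested.

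Strand was not used to choose the window and was tested over livers. The minus-strand share of the window minus that of the comparison stretch was 5.12 ± 10.9 percentage points in PB livers (SD, n = 17, higher in 10 of 17) and 5.63 ± 7.89 in SB livers (SD, n = 13, higher in 9 of 13). Neither passed after adjustment: the two-sided sign-flip permutation test gave p = 0.060 in PB (adjusted p = 0.12 over 4 tests) and p = 0.027 in SB (adjusted p = 0.11). PB liver 17 was the highest at 34.5 points and rests on 17 window records. Without it the PB mean was 3.28 points (permutation test, p = 0.12, adjusted p = 0.25). With livers 1 to 12 it was 2.76 points and with a support of at least 10 it was 2.40. The difference between PB and SB was -0.51 points (permutation test of labels, p = 0.89, adjusted p = 0.89 over 2 tests), and -2.34 without PB liver 17.

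Most of the strand difference lay in the pile-up, where it is described without a test because that stretch was delimited on these data. Minus-strand records made up 58.9% of the pile-up in PB and 58.8% in SB, against 50.1% in PB and 50.9% in SB for the comparison stretch. In the rest of the window they made up 49.8% in PB and 54.9% in SB, so in SB a part lay outside the pile-up. Per liver the pile-up share averaged 59.7% ± 8.2 over 17 PB and 58.3% ± 7.3 over 13 SB livers (SD). It was above the liver's own comparison stretch in 15 of 17 PB and 10 of 13 SB livers. Counting each position and strand once gave 57.9% in PB and 59.6% in SB, and leaving out the 5 most reused positions 60.9% in PB and 59.2% in SB. The steps starting at 3100001 and 3110001 had the largest minus-strand shares of the 7 pile-up steps with both vectors. The step from 3100001 had 76.6% in PB and 68.0% in SB, and the step from 3110001 had 71.4% in PB and 65.1% in SB. The isolated SB step from 3050001 had 83.9% minus-strand records among 31.

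Support was likewise not used to choose the window. The log2 ratio of the median support in the window to that in the comparison stretch was -0.05 ± 0.19 in PB livers (SD, n = 17, below 0 in 10 of 17) and -0.03 ± 0.16 in SB livers (SD, n = 13, below 0 in 8 of 13). Neither passed the threshold (sign-flip permutation test, p = 0.33, adjusted p = 0.43 in PB, and p = 0.52, adjusted p = 0.52 in SB). With the mean of log2 support in place of the median, the PB value was -0.19 (permutation test, p = 0.013, adjusted p = 0.052), and with positions of 1 liver only it was -0.28 (permutation test, p = 0.19, adjusted p = 0.26). The groups differed by -0.02 on the log2 scale (PB minus SB, permutation test of labels, p = 0.78, adjusted p = 0.89). These tests take the liver as the replicate, so the p-values set a mean difference against the spread between livers. If support counts reads, as taken here, these come from amplified fragments, so it was not read as a count of cells.

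Within the pile-up the median support over all records was 40 in PB and 48 in SB, and in the comparison stretch 45 in PB and 47 in SB. Per liver, its log2 ratio to the comparison stretch was -0.24 ± 0.44 in PB (below 0 in 13 of 17 livers) and -0.02 ± 0.16 in SB (below 0 in 7 of 13). PB livers 14 and 16 were the lowest, at -1.55 with 18 pile-up records and -0.94 with 12. Records with a support under 10 were 15.4% of the PB and 15.1% of the SB records of the pile-up, against 8.94% of the PB and 7.58% of the SB records of the comparison stretch. The pile-up thus held more weakly supported records with both vectors, while its median support in SB was near that of the comparison stretch.

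**Figure D5:**
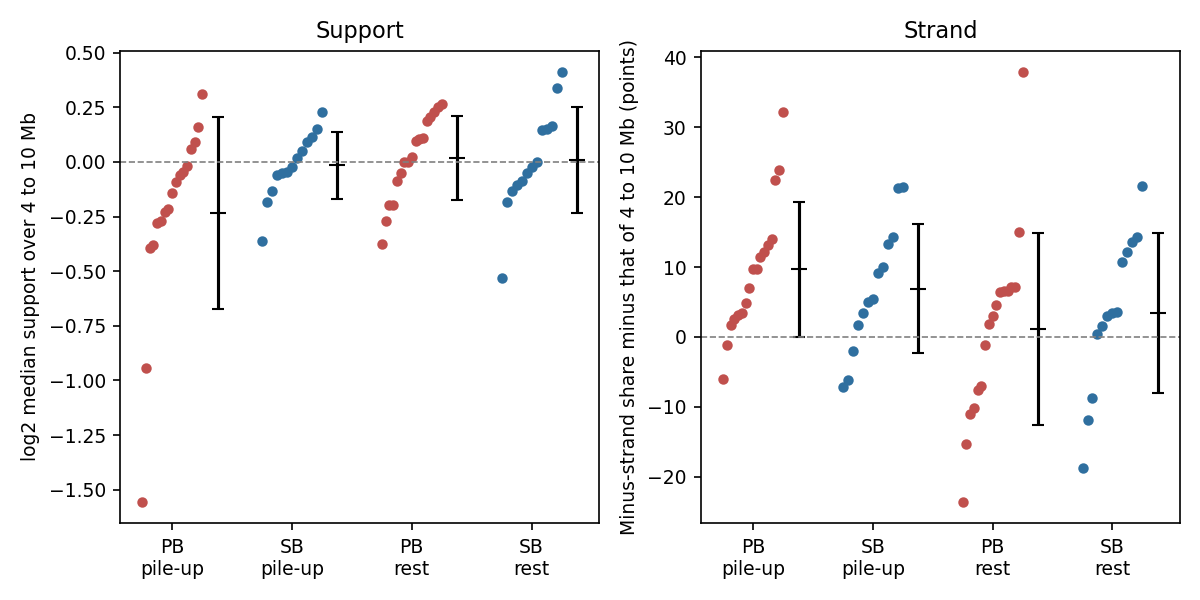
Left, log2 ratio of the median support in the pile-up or the rest of the window to that of the 4 to 10 Mb stretch in the same liver. Right, minus-strand share minus that of the 4 to 10 Mb stretch, in percentage points. Each point is a liver (17 PB, 13 SB), sorted by value, with the mean and SD beside it. Minus-strand differences in the pile-up lie above 0 in 15 of 17 PB and 10 of 13 SB livers. Support ratios in the pile-up lie below 0 in 13 of 17 PB and 7 of 13 SB livers.

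Density in PB was also compared with density in SB over 10 kb steps, fitted with limma across all steps of the genome with a mean of at least 1 record per liver. Of 11246 steps tested, 60.9% were called higher in PB and 0.293% higher in SB at an adjusted p under 0.05, and the median log2 difference (PB minus SB) over these steps was 1.05. With no minimum, 245416 steps were tested, of which 3280 were called higher in PB and 24 higher in SB, and the median was -0.11. In the window 16 of 100 steps were tested, of which 4 were called higher in PB and 6 higher in SB, with a median of -0.41 over those tested. The window was chosen for its SB density, so nothing is read from these counts, and sizes are given without p-values.

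The 6 steps higher in SB were 3050001 (-1.74, SE 0.38) and, inside the pile-up, 3080001 (-1.40, SE 0.33), 3100001 (-0.65, SE 0.28), 3110001 (-1.43, SE 0.28), 3120001 (-0.92, SE 0.29) and 3130001 (-0.80, SE 0.27). With trimmed-mean (TMM) scaling the median of all steps moved to 2.1, the steps 3100001, 3120001 and 3130001 turned to higher in PB, and 1 step of the window was called higher in SB. The densest PB step, 3090001, differed by 0.19 (SE 0.25). The steps higher in PB lay outside the pile-up, at 3150001 (0.83, SE 0.38), 3590001 (1.19, SE 0.43), 3910001 (1.33, SE 0.41) and 3980001 (1.68, SE 0.39). The minimum was set over both groups together. The steps 3150001 (47 PB and 13 SB records) and 3590001 (27 and 4) met it mainly through PB records. So did 3910001 (35 and 6) and 3980001 (54 and 8). The steps 3050001 (7 PB and 31 SB records) and 3080001 (29 and 62) met it mainly through SB records. Each thus entered through the group in which it was higher, and its difference is a description only. The step 3150001 was no longer called with livers 1 to 12, with the replicate block, with no minimum or with positions of 1 liver only (0.21). With no minimum, 3590001 and 3910001 (higher in PB) and 3100001, 3120001 and 3130001 (higher in SB) were not called either. With positions of 1 liver only, 3050001 (-0.78) and 3130001 (-0.94) were not called, and 3590001, 3910001 and 3980001 fell below the minimum. In the step 3980001, with all records, PB livers had from 0 to 0.752 records per 10000 (median 0.426) and SB livers from 0 to 0.274 (median 0.0832).

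Over 100 kb steps all 10 steps of the window could be tested. Of 20887 such steps in the genome, 10.3% were called higher in PB and 14.5% higher in SB, with a median of -0.33. In the window 0 were called higher in PB and 4 higher in SB: 3000001 (-0.45, SE 0.14), 3100001 (-0.73, SE 0.11), 3400001 (-0.87, SE 0.32) and 3600001 (-0.73, SE 0.28). Without SB liver 13 the steps 3400001 and 3600001 were no longer called, leaving 2. With TMM scaling, and with limma's trend in place of voom weights, 1 was called. As with the 10 kb steps, the window was chosen for its SB density, so nothing is read from these counts. Sizes are again given without p-values.

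Which gene lies under the pile-up was not determined, because the gene table at hand describes the earlier build GRCm38.p6. In that build's RefSeq table, the protein-coding genes Sfi1, Gm51877, Eif4enif1, Drg1, Patz1, Pik3ip1 and Limk2 follow one another in this part of the chromosome. Their places in GRCm39, and so relative to the pile-up, were not determined. Sfi1, looked up after the pile-up was seen, encodes a centrin-binding protein of the centrosome. Eif4enif1 encodes the nucleocytoplasmic shuttling partner of the cap-binding factor eIF4E, and Limk2 a kinase that phosphorylates cofilin. Whether extra genomic copies of the stretch, copies collapsed in the assembly or read placement give the pile-up was not tested. The measurements that touch it are that the excess was found with both vectors, in all 30 livers, over 70 kb. Pooled over the livers of each group, the pile-up also had larger shares of reused positions, both-strand positions and weakly supported records than the comparison stretch. A denser stretch also gives more chance coincidences, and these shares were not tested over livers.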

How the data were processed

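Site lists of 30 livers were used as the authors deposited them, with chromosome, position, strand and a whole number per site. No source used here says what that number is. Of no named unit in the deposited files, it is called support as a unit of its own (other). Its smallest value was 3. Per the submitters' processing notes, cutadapt, BWA and GRCm39 were used, with no versions. Deposited merged lists were not used.

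Records per liver were counted in steps of 1, 10 and 100 kb with Python 3.11.15, pandas 2.3.3 and numpy 2.4.6. Strand and support were tested by two-sided sign-flip and label permutation tests (scipy 1.17.1, 100000 resamples, exact for the sign flips in SB), with Benjamini-Hochberg adjustment. Steps were fitted with limma 3.58.1 in R 4.3.3 (voom, total records as library size). The fit was checked on simulated counts with little spread between livers and few steps changed. That setting differs from these data, so the check does not cover their spread or their shift between the groups. Each liver is 1 replicate.

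The window, the pile-up and the named steps and positions were chosen with earlier results of these data known. Named are the 5 densest 10 kb and 1 kb steps and the 5 positions in most livers of each group, and the steps past the adjusted threshold.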

Additional observations from a re-analysis of the deposited data

How the results depend on the processing

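Support and strand values of the window did not pass the adjusted threshold under any of the alternatives run. Directions turned with 4 to 5 Mb as the comparison (PB support ratio 0.021, PB minus SB support 0.088 on the log2 scale, PB minus SB strand 1.53 points), with a support minimum of 10 (SB support ratio 0.055) and with the liver number as a replicate block (PB minus SB support 0.0091, unpaired -0.02). The PB rank of 63 moved to 227 by distinct positions, to 132, 233 and 448 without the 2, 5 and 10 densest steps and to 573 by the median step. The SB rank of 1 moved to 3 and 118 without the 5 and 10 densest steps and to 187 by the median step, and it was 1 without SB liver 13, with merged sites and with a support minimum of 10. The share in the pile-up, with positions of a single liver only (added after the data were seen), was 26.0% in PB and 39.6% in SB, an alternative that removes more PB than SB records. Steps of 10 kb called higher in PB (4) numbered 7 with TMM, 2 with a mean of at least 2 records, 1 with no filter and 0 with positions of a single liver. Those called higher in SB (6) numbered 1 with TMM and 3 with no filter. TMM turned the steps 3100001 (0.43), 3120001 (0.11) and 3130001 (0.16). Steps of 100 kb called higher in SB (4) numbered 2 without SB liver 13, 1 with TMM, 1 with limma's trend and 2 with positions of a single liver. Nothing is read from counts of called steps, because the window was chosen for its SB density. Liver numbers were not taken to pair livers: of 13 same-numbered pairs 1 had a correlation over 0.1 (range -0.00842 to 0.158), and 2 PB livers correlated best with the SB liver of their number. With the replicate block, 3 steps of 10 kb were called higher in PB and 6 in SB, and 5 steps of 100 kb in SB. The causes of these changes were not tested. Sites below a support of 3 are not listed, and in livers with few records a 10 kb step rests on 1 or 2 records.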
